A study of Mus musculus with 35 samples.

Results

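Very long genes are described here in the mouse striatum: autosomal genes whose annotated interval spans at least 500 kb and that had at least 6 counts in all 35 libraries. Genes named as glutamate receptors, potassium or calcium channel subunits, ephrin receptors, semaphorins and some other guidance and synaptic families were left out by symbol. Of 39017 gene rows, 205 spanned at least 500 kb and 192 of these were autosomal. The count minimum removed 11 of the 192 and the family names removed 21, which left 160 genes. The rule used span, count and name, and no difference between genotypes. Just outside the limit lay Dennd1a (488.2 kb), Ank3 (490.7 kb) and Dnm3 (495.6 kb). Just inside it lay Edil3 (501.8 kb), Dock1 (503.0 kb) and Car10 (503.7 kb).

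Striatal RNA of 35 mice aged 21.7 to 23.0 weeks was sequenced, each mouse giving 1 library. The study crossed a knock-in of expanded CAG repeats in the mouse huntingtin gene (HttQ111) with deletion of Hdac2, a class I histone deacetylase, to ask how each alters the striatal transcriptome alone and together. The groups were 8 Htt+/+ Hdac2 WT mice (5 males, 3 females), 7 HttQ111/+ Hdac2 WT mice (4 males, 3 females), 9 Htt+/+ Hdac2 KO mice (5 males, 4 females) and 11 HttQ111/+ Hdac2 KO mice (8 males, 3 females). The HttQ111 allele held 110 to 140 CAG repeats in the Hdac2 WT mice and 110 to 144 in those with the deletion. Hdac2 KO mice were homozygous for a floxed Hdac2 allele and carried a D9-Cre transgene driven by the Ppp1r1b (DARPP-32) promoter, which acts in medium-spiny neurons (MSNs), so other striatal cells kept an intact Hdac2. By the labels none of the 15 Hdac2 WT mice carried Cre and all 20 Hdac2 KO mice did, and an effect of Cre cannot be told apart from that of the deletion. The HttQ111 and D9-Cre lines were kept on C57BL/6J, and the floxed line had a mixed C57BL/6/129SeEv origin before it was bred to C57BL/6J. All 4 groups share the tissue and the age.

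The libraries held 50970712 to 77867348 counts in genes, and the very long genes took 1.30% to 1.56% of them. Hdac1, the closest relative of Hdac2, rose in Hdac2 KO striata from 6.06 ± 0.513 CPM (counts scaled to a common library size; SD, n = 8) to 8.998 ± 0.507 (n = 9) in Htt+/+ mice. Hdac2 itself was at 103 ± 3.42 CPM in Htt+/+ Hdac2 WT and 94.4 ± 2.98 in Htt+/+ Hdac2 KO, counted over the whole gene, of which part of the exons is deleted in MSNs. Markers that define MSNs were present in every library, with a summed level of 6515 to 10099 CPM over 11 genes. RNA was extracted on 24, 25 and 27 May for Hdac2 WT mice and on 26 and 31 May and 3 June for Hdac2 KO mice, with the exceptions of 1 HttQ111/+ Hdac2 KO library on 25 May and 1 Htt+/+ Hdac2 KO library on 27 May. Some libraries stood apart. The summed level of cortical projection neuron markers was 495 CPM in HttQ111/+ Hdac2 WT replicate 7 against 39.4 to 126 in the other 6 of its group, and 220 and 182 CPM in Htt+/+ Hdac2 KO replicates 6 and 2 against 46.9 to 62.5 in the other 7. Because whole striatum was sequenced, fewer cells of a type and less RNA per cell cannot be told apart in any result below.

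Genes of this size are typical of neurons. Most of their interval is intron, so RNA polymerase needs many hours to pass from the first exon to the last, and such genes are sensitive to anything that slows elongation. Many encode cell adhesion molecules, channel partners and signalling proteins of the synapse, and several coincide with common fragile sites, which break when replication is stressed.

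The 160 genes lay on all 19 autosomes and spanned 502 to 4435 kb, with a median of 728.6 kb, and 42 reached 1000 kb. Of the 158 with an entry in the reference annotation all were protein-coding (MDGA2 and Sox2ot had none). Exons summed to a median of 10.3 kb, or 1.27% of the span. Mean levels ran from 0.612 to 990 CPM, with a median of 40.3 CPM. The 10 longest were Gm20388, Fgfr2, Ptprd, Cntnap2, Lrp1b, Macrod2, Csmd1, Fhit, Nrxn3 and Ctnna3. The longest intervals are not all those of 1 ordinary transcription unit. Gm20388 (4434.9 kb) is a row whose exons overlap those of other genes, and genes lying inside it held 4531% of its counts. The corresponding share was 1368% for Fgfr2 (2960.9 kb), 3064% for Ctnna3 (1572.7 kb) and 104% for Macrod2 (1997.7 kb). In a later annotation of the same build Arfip1 spanned 86.5 kb instead of 1391.3 kb and Arhgap26 383 kb instead of 770 kb. Mdga2 and MDGA2 are overlapping rows of the same locus, and their counts are uncertain.

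By level per length of exon, the most abundant named gene was Syt1, the calcium sensor of synaptic vesicle release, at 119 CPM per kb. Rbfox1, a splicing regulator of neurons, followed at 106 CPM per kb and Dgkb, a diacylglycerol kinase, at 59.7 CPM per kb. Foxp1, a transcription factor of striatal neurons, was at 31.9 CPM per kb and Ank2, an ankyrin of the membrane skeleton, at 17.8 CPM per kb. At the other end of the 10 longest, Fhit, a fragile-site gene, was at 2.84 CPM per kb and Ctnna3, an alpha-catenin, at 0.471 CPM per kb. By role, the median level was highest for the 5 receptor tyrosine phosphatases (165 CPM) and the 17 synaptic adhesion genes (83.6 CPM), and lowest for the 20 genes of housekeeping enzymes and trafficking (13.3 CPM).

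Counting over whole gene intervals would place intronic reads, and reads of nested genes, in the outer gene. The deposited values do not behave as sums over the interval: in 120 of 324 pairs in which 1 gene lay wholly inside another on the same strand, the inner gene had more counts than the outer gene. Where a very long gene was the outer gene this held for 8 of 57 pairs. The share of intronic reads in the values of these genes was therefore not known.

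The start regions of the genes that moved in both Hdac2 comparisons are shown because a histone deacetylase acts on chromatin at promoters. RefSeq windows of 300 bases (250 before and 50 after the start, GRCm38) matched 120 of the 160 genes, and 88 of these lay within 1000 bases of the 5′ end in the count table. Printed below, in capitals wherever a C is followed by a G, are 3 windows of genes that rose in both comparisons and then 3 of genes that fell in both. They are those with the largest mean change among the windows within 1000 bases of that end. The windows lie at chr16:24393100-24393399 (+) for Lpp, chr14:39473039-39473338 (-) for Nrg3, chr7:49975100-49975399 (+) for Nell1, chr11:93098116-93098415 (+) for Car10, chr17:72604258-72604557 (-) for Alk and chr6:45059811-45060110 (+) for Cntnap2.
Lpp: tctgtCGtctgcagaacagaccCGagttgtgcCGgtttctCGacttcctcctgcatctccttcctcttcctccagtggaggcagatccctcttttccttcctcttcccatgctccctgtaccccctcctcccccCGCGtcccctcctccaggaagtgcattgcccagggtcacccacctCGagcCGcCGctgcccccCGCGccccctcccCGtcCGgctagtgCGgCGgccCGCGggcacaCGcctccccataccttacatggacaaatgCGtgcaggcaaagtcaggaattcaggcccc
Nrg3: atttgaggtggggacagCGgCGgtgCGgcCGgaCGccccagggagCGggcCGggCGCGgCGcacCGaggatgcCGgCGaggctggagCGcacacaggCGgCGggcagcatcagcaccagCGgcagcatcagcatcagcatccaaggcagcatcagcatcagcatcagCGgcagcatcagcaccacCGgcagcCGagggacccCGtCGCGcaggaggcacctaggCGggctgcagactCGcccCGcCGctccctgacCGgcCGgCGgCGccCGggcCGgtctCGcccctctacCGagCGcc
Nell1: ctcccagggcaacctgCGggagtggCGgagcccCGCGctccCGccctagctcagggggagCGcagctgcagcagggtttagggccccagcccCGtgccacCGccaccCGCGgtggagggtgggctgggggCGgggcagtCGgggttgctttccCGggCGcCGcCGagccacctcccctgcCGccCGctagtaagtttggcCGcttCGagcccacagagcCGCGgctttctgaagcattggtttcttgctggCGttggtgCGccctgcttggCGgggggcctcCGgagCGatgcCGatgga
Car10: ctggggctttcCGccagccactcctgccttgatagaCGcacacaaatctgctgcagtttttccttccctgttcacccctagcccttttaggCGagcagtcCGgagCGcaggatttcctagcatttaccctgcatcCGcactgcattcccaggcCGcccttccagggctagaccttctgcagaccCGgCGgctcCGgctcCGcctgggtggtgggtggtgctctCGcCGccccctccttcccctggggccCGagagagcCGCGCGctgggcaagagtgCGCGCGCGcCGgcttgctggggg
Alk: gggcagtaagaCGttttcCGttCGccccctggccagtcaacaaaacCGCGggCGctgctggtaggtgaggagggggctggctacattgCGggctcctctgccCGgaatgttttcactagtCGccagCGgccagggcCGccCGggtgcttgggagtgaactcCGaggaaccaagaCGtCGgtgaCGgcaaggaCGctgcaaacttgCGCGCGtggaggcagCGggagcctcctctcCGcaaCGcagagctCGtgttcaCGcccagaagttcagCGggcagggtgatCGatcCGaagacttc
Cntnap2: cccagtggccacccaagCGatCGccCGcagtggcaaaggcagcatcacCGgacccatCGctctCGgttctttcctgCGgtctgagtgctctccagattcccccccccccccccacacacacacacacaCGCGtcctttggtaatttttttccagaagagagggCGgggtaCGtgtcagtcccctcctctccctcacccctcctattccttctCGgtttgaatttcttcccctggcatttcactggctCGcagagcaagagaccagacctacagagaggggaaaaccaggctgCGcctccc

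These windows held 14 to 36 CG pairs, with 19 for Lpp, 36 for Nrg3, 28 for Nell1, 22 for Car10, 28 for Alk and 14 for Cntnap2. Over the 120 matched genes the median was 16.5, against 7 over all 27025 promoters of the table. The 6 matched genes that rose in both comparisons had a median of 15.5, the 16 that fell in both 17.5, and the 74 called in neither 19.5. These medians include windows over 1000 bases from the 5′ end in the count table. Such were those of Cdh18, Magi1 and Thsd4, which rose, and of Fgf14, Mctp1, Nlgn1, Nrxn3 and Rbfox1, which fell. GGGCGG, the core of the GC box, was found on either strand in 50.8% of the matched genes and in 35.9% of all promoters. TGACGTCA, the cyclic AMP response element, was in 1 window of the 120 matched genes (0.833%) and in 1.88% of all promoters. TTCAGCACC, part of the element bound by the neuronal repressor REST, was in 2 windows (1.67%) and in 0.359% of all promoters. Both of these windows were of genes called in neither comparison. The set of all promoters was not matched to these genes by level. Of the 6 printed windows, GGGCGG was present in those of Nell1, Car10, Alk and Cntnap2, and neither of the other motifs was present in any.

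The first question was how these genes responded to the loss of Hdac2 in MSNs, in Htt+/+ mice and again, in separate mice, in HttQ111/+ mice. In Htt+/+ mice 17 of the 160 rose and 23 fell in Hdac2 KO striata, and in HttQ111/+ mice 10 rose and 32 fell (edgeR quasi-likelihood F test with 9 surrogate variables, Benjamini-Hochberg adjusted p under 0.05 over all genes tested). That is 25.0% of them in Htt+/+ mice, where 17.8% of all genes tested were called, and 26.2% in HttQ111/+ mice, where 16.5% of all genes were called. By direction, all genes were called higher in 9.06% and lower in 8.79% in Htt+/+ mice, and higher in 7.68% and lower in 8.86% in HttQ111/+ mice. The largest rises were of Tmem132d, Thsd4 and Cdh18 and the largest falls of Zmat4 and Car10 in Htt+/+ mice and of Arhgap15, Alk and Prkg1 in HttQ111/+ mice. Without the 3 libraries highest in cortical markers, 18 rose and 14 fell in Htt+/+ mice (20% called, 13.2% of all genes) and 10 rose and 20 fell in HttQ111/+ mice (18.8% called, 12.7% of all genes), so that fewer of the calls were lower. Changes were small as a rule: the median absolute log2 fold change was 0.087 in Htt+/+ and 0.080 in HttQ111/+ mice, against 0.095 and 0.082 over all genes, and the median signed change was 0.0053 and −0.025.

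Both comparisons called 26 of the genes, all in the same direction, which is 65.0% of the 40 and 61.9% of the 42. Over all genes tested in both, 1952 of 3043 and of 2828 were called in both, each in the same direction in both. The 8 that rose in both were Cdh18, Fam155a, Lpp, Magi1, Nell1, Nrg3, Thsd4 and Tmem132d. The 18 that fell in both were Alk, Anks1b, Camta1, Car10, Cntnap2, Dpp6, Elmo1, Fgf14, Macrod2, Mctp1, Negr1, Nlgn1, Nrxn3, Opcml, Plcb1, Rbfox1, Vps13b and Zmat4. Over all 160 genes the sign was shared by 136, and over all genes tested in both by 75.8%. These comparisons share no library. The test of the difference between them called 0 of the 160 genes (edgeR; 11 at an unadjusted p under 0.05, 0 by DESeq2 and 0 by limma-voom), against 0.00577% of all genes called, and 5.63% at the unadjusted threshold.

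**Figure D1:**
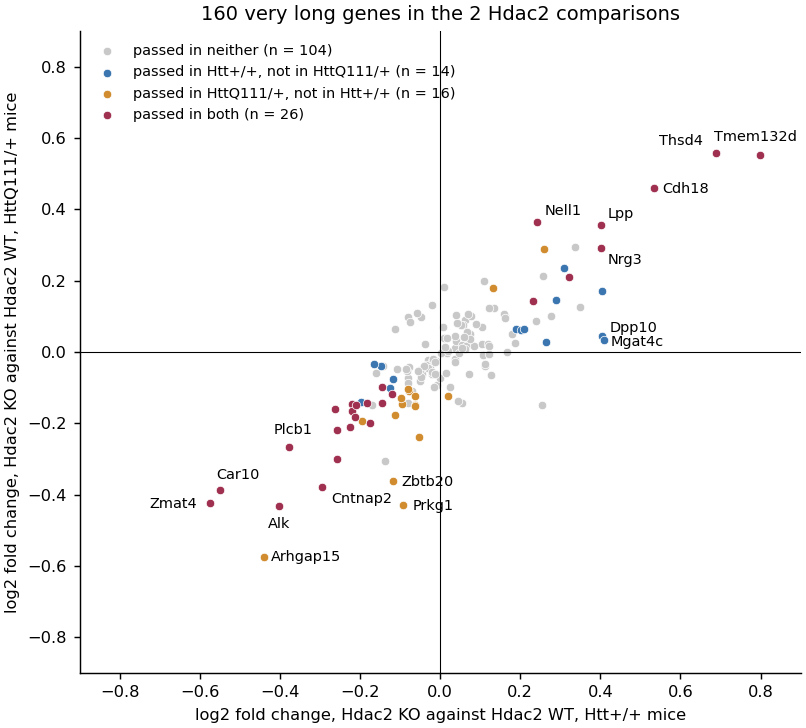
Each point is 1 of the 160 very long genes, with its log2 fold change between Hdac2 KO and Hdac2 WT striata in Htt+/+ mice (x axis) and in HttQ111/+ mice (y axis), coloured by the comparisons in which it passed an adjusted p of 0.05. The 26 genes that passed in both lie at the upper right and lower left, with Tmem132d, Thsd4 and Cdh18 at the upper end.

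Extraction days nearly followed the Hdac2 genotype. On 27 May, 1 Htt+/+ Hdac2 KO and 3 Htt+/+ Hdac2 WT libraries were extracted together, and the KO library lay beyond the WT libraries on the called side for 34 of the 40 genes and on the other side for 3, which is 85% where 73.4% of all genes called lay so. On 25 May, with 1 HttQ111/+ Hdac2 KO and 2 HttQ111/+ Hdac2 WT libraries, this held for 14 of the 42 genes (33.3%), with 7 on the other side, where it held for 66.5% of all genes called. That KO library was replicate 1, in which the median deviation of the very long genes was the highest of all libraries (0.083 on the log2 scale). The WT libraries were replicate 4 and replicate 7, the library highest in cortical markers (495 CPM). With the day as a term in place of the surrogate variables, 9 very long genes were called in Htt+/+ mice and 4 in HttQ111/+ mice, against 4.80% and 1.93% of all genes. The part of the extraction day in the results below was not tested further.

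**Figure D2:**
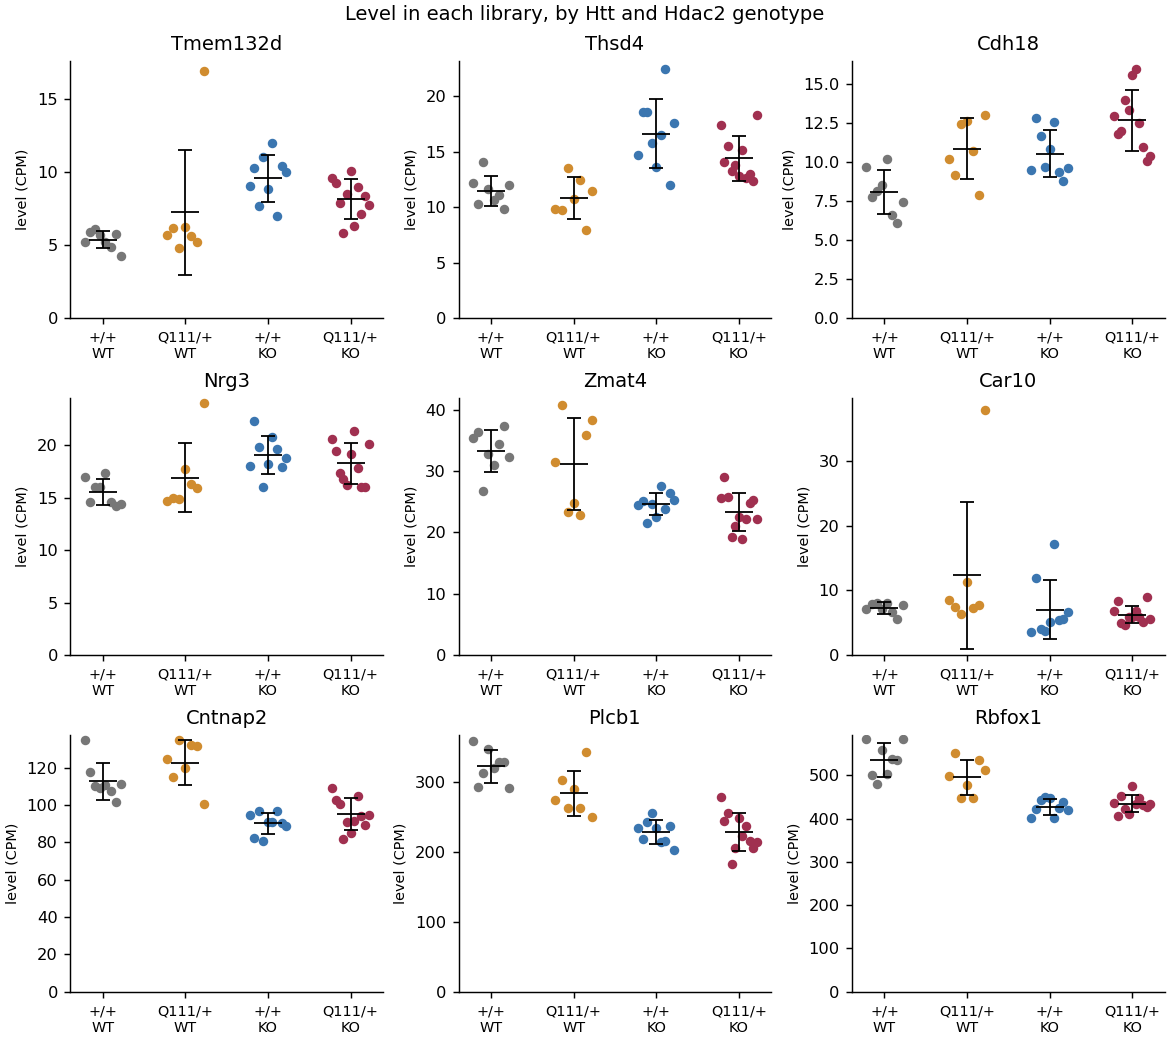
Level of 9 very long genes in each library (CPM, linear axes from 0), by Htt genotype (+/+ or Q111/+) and Hdac2 genotype (WT or KO). Each point is 1 mouse, and the bars give the mean and SD of 8, 7, 9 and 11 mice. By group median Tmem132d, Thsd4, Cdh18 and Nrg3 lie higher and the other 5 lower in Hdac2 KO striata, and 1 HttQ111/+ Hdac2 WT library is high in Tmem132d, Nrg3 and Car10. In Car10, Htt+/+ Hdac2 KO replicates 6 and 2 (17.2 and 11.9 CPM) lie above every Htt+/+ Hdac2 WT library.

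The largest rise in Htt+/+ mice was that of Tmem132d (chr5:127783491-128433077), which encodes a single-pass transmembrane protein. Its level was 4.30 to 6.10 CPM (median 5.49) in Htt+/+ Hdac2 WT, 4.85 to 16.9 (median 5.72) in HttQ111/+ Hdac2 WT, 7.00 to 11.99 (median 10.0) in Htt+/+ Hdac2 KO and 5.87 to 10.1 (median 8.38) in HttQ111/+ Hdac2 KO. The Htt+/+ groups did not overlap. The HttQ111/+ groups overlapped, with 16.9 CPM in WT replicate 7, the library high in cortical markers, and at most 6.26 CPM in the other 6 WT libraries. The log2 fold change was 0.80 (SE 0.12, adjusted p = 1.06e-05) in Htt+/+ and 0.55 (SE 0.10, adjusted p = 0.000298) in HttQ111/+ mice.

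Among the 12 genes of secreted, matrix and CUB domain proteins, 4 rose and 0 fell in Htt+/+ mice, where 9.06% of all genes were called higher. In HttQ111/+ mice 2 rose and 0 fell, where 7.68% of all genes were called higher. The median log2 fold change of the 12 was 0.20 and 0.04, against −0.001 and −0.004 over all genes. Thsd4 (chr9:59966931-60522046), a thrombospondin-domain protein of the extracellular matrix, was at 9.81 to 14.0 CPM (median 11.4) in Htt+/+ Hdac2 WT, 7.95 to 13.5 (median 10.7) in HttQ111/+ Hdac2 WT, 11.96 to 22.4 (median 16.5) in Htt+/+ Hdac2 KO and 12.4 to 18.3 (median 13.8) in HttQ111/+ Hdac2 KO. Most KO libraries lay above the WT libraries, with overlap in both pairs of groups. Its log2 fold change was 0.69 (SE 0.12, adjusted p = 8.86e-05) and 0.56 (SE 0.11, adjusted p = 0.000433). Nell1, a secreted protein with thrombospondin and EGF-like domains, was at 23.1 ± 3.32, 23.0 ± 3.06, 27.98 ± 1.81 and 28.4 ± 1.96 CPM in the 4 groups in the same order, and rose by 0.24 (SE 0.07, adjusted p = 0.00816) and 0.37 (SE 0.06, adjusted p = 1.93e-05) on the log2 scale. Csmd2 and Fstl5 rose in Htt+/+ mice (log2 fold change 0.29 and 0.26) and had 0.15 and 0.03 in HttQ111/+ mice, where they did not pass. Csmd1 (1642.8 kb), the longest of these genes, did not pass (−0.05 and −0.06).

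Of the 2 genes of the neuregulin signal, the ligand rose in both comparisons and the receptor did not pass. Over all genes 9.06% and 7.68% were called higher. Nrg3 (chr14:38368952-39472666), a neuregulin that binds ErbB4, was at 14.2 to 17.4 CPM (median 15.3) in Htt+/+ Hdac2 WT, 14.7 to 24.0 (median 15.9) in HttQ111/+ Hdac2 WT, 16 to 22.3 (median 18.8) in Htt+/+ Hdac2 KO and 15.99 to 21.4 (median 17.8) in HttQ111/+ Hdac2 KO. The groups overlapped, and the highest HttQ111/+ Hdac2 WT value was again that of replicate 7. Nrg3 rose by 0.40 (SE 0.07, adjusted p = 8.07e-05) in Htt+/+ and by 0.29 (SE 0.06, adjusted p = 0.000806) in HttQ111/+ mice. Erbb4 was at 72.3 ± 6.6 CPM in Htt+/+ Hdac2 WT and 77.1 ± 4.3 in Htt+/+ Hdac2 KO, with log2 fold changes of 0.12 (adjusted p = 0.0678) and 0.02 (adjusted p = 0.796).

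Of the 17 synaptic adhesion genes, Cntnap2, Nlgn1 and Nrxn3 fell and Lrrtm4 was called higher in Htt+/+ mice, and 6 fell (Cntnap2, Tenm2, Tenm4, Nlgn1, Cntn4 and Nrxn3) and 0 rose in HttQ111/+ mice, while 13 and 11 did not pass. All genes were called lower in 8.79% and 8.86%, and genes under 500 kb of 74.7 to 990 CPM in 22.8% and 22.7%. The median log2 fold change of the 17 was −0.05 and −0.07. Cntnap2 (chr6:45060061-47299570), a neurexin-family protein that gathers potassium channels along the axon, was at 101 to 135 CPM (median 110.4) in Htt+/+ Hdac2 WT, 101 to 135 (median 125) in HttQ111/+ Hdac2 WT, 81.0 to 97.1 (median 91.0) in Htt+/+ Hdac2 KO and 81.8 to 109 (median 94.2) in HttQ111/+ Hdac2 KO. The Htt+/+ groups did not overlap, and in HttQ111/+ mice 1 WT library lay within the KO range. Cntnap2 fell by 0.29 (SE 0.06, adjusted p = 0.000341) and by 0.38 (SE 0.05, adjusted p = 1.80e-06) on the log2 scale.

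Nrxn3 (chr12:88722876-90332899), a presynaptic neurexin, was at 203 to 252 CPM (median 223) in Htt+/+ Hdac2 WT and 173 to 206 (median 183) in Htt+/+ Hdac2 KO, groups that overlapped by 1 library each. In HttQ111/+ mice it was at 183 to 229 CPM (median 215) in WT and 137 to 217 (median 176) in KO. Its log2 fold change was −0.18 (SE 0.04, adjusted p = 0.00169) and −0.14 (SE 0.04, adjusted p = 0.00572). Nlgn1, a postsynaptic partner of neurexins, was at 93.0 ± 8.4 CPM in Htt+/+ Hdac2 WT, 90.1 ± 10.2 in HttQ111/+ Hdac2 WT, 76.8 ± 5.5 in Htt+/+ Hdac2 KO and 78.1 ± 5.5 in HttQ111/+ Hdac2 KO, and fell by 0.21 (adjusted p = 0.00363) and 0.15 (adjusted p = 0.0169). Tenm2, a teneurin that binds latrophilins, fell by 0.24 in HttQ111/+ mice (102 ± 18.02, 106 ± 17.5, 89.2 ± 10.5 and 85.1 ± 6.25 CPM in the 4 groups) and had −0.05 in Htt+/+ mice.

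Lrrtm4, a postsynaptic leucine-rich protein, was called higher in Htt+/+ Hdac2 KO striata (log2 fold change 0.20, adjusted p = 0.00215) although its unadjusted level was no higher there (45.8 ± 3.6 CPM against 47.5 ± 3.2, unadjusted log2 difference −0.05). Its sign turned in 5 of 21 alternatives, among them the fit with no surrogate variables. It was the only 1 of the 40 called genes whose sign differed between the fit and the unadjusted means, and the 42 called in HttQ111/+ mice held no such gene.

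Partners of these proteins are encoded by shorter genes. Of 45 rows of synaptic adhesion genes under 500 kb, 4 rose and 8 fell in Htt+/+ mice, and 2 rose and 13 fell in HttQ111/+ mice, while 33 and 30 did not pass, against 8.79% and 8.86% of all genes called lower. Flrt3 had 2 of these rows, and the less abundant 1 (4.15 CPM) was among the 13. The 45 rows had a median log2 fold change of 0.02 and −0.05. Cntnap1, a contactin-associated protein like Cntnap2, fell by 0.43 (adjusted p = 7.21e-08; 395 ± 33 and 300 ± 25 CPM in Htt+/+ Hdac2 WT and KO) and by 0.34 (adjusted p = 8.73e-07). Nlgn2, Nlgn3 and Nrxn2 did not pass in either comparison.

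Among the 10 genes of IgLON, glypican and other immunoglobulin-type surface proteins, 1 rose and 3 fell in each comparison. The shares over all genes were 9.06% and 7.68% higher and 8.79% and 8.86% lower. Opcml and Negr1, IgLON proteins anchored in the neuronal membrane, fell in both. Negr1 was at 268 ± 22.6, 274 ± 23.3, 231 ± 12.2 and 244 ± 17.7 CPM in the 4 groups, with log2 fold changes of −0.15 (adjusted p = 0.0234) and −0.14 (adjusted p = 0.0108). Opcml was at 22.3 ± 2.73, 24.1 ± 1.77, 19.1 ± 1.46 and 19.6 ± 2.69 CPM, with −0.17 (adjusted p = 0.0258) and −0.20 (adjusted p = 0.00290). Lsamp, a further IgLON gene, did not pass (0.04 and −0.03). Gpc6, a glypican that carries heparan sulphate, rose in Htt+/+ mice from 4.87 ± 0.52 to 6.37 ± 0.85 CPM (log2 fold change 0.40, SE 0.10, adjusted p = 0.00435), and had 0.17 (adjusted p = 0.205) in HttQ111/+ mice. Astn2, which guides membrane trafficking in migrating neurons, rose in HttQ111/+ mice (0.29, SE 0.08, adjusted p = 0.0126) and had 0.26 (adjusted p = 0.0545) in Htt+/+ mice, with 23.6 ± 5.45, 23.8 ± 6.40, 30.2 ± 4.46 and 26.9 ± 3.11 CPM in the 4 groups. Genes lying inside Astn2 held 93.0% of its counts.

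The 7 cadherins, protocadherins and catenins held 1 of the largest rises. In Htt+/+ mice 1 rose and 0 fell, and in HttQ111/+ mice 1 rose and 2 fell. The shares over all genes were 9.06% and 7.68% higher and 8.79% and 8.86% lower. Cdh18 (chr15:22549022-23474029), a type II cadherin of neurons, was at 6.14 to 10.2 CPM (median 7.97) in Htt+/+ Hdac2 WT, 7.91 to 13.0 (median 10.7) in HttQ111/+ Hdac2 WT, 8.77 to 12.9 (median 9.69) in Htt+/+ Hdac2 KO and 10.1 to 16 (median 12.5) in HttQ111/+ Hdac2 KO. The groups overlapped in both pairs. Its log2 fold change was 0.53 (SE 0.09, adjusted p = 6.86e-05) and 0.46 (SE 0.08, adjusted p = 8.54e-05). Pcdh9, a protocadherin, and Ctnnd2, the delta-catenin of dendrites, fell in HttQ111/+ mice by 0.13 and 0.11, and had −0.10 and −0.08 in Htt+/+ mice, where they did not pass. Of the 5 receptor tyrosine phosphatases, 1 rose in Htt+/+ mice, where 9.06% of all genes were called higher, and 0 passed in HttQ111/+ mice. Ptprt rose in Htt+/+ mice from 155 ± 5 to 175 ± 9 CPM (log2 fold change 0.21, SE 0.05, adjusted p = 0.00127) and had 0.06 in HttQ111/+ mice. Ptprd (2270.6 kb), a presynaptic organiser, did not pass in either (−0.04 in both).

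Among 11 channels, channel partners and receptors, 2 rose and 4 fell in Htt+/+ mice, and 0 rose and 3 fell in HttQ111/+ mice. The shares over all genes were 9.06% and 7.68% higher and 8.79% and 8.86% lower. Dpp6 and Dpp10, which are both auxiliary subunits of Kv4 potassium channels, were called in opposite directions in Htt+/+ mice. Dpp6 (chr5:26817203-27727500) was at 326 to 351 CPM (median 342) in Htt+/+ Hdac2 WT, 309 to 375 (median 347) in HttQ111/+ Hdac2 WT, 270.0 to 295 (median 288) in Htt+/+ Hdac2 KO and 256 to 320.1 (median 302) in HttQ111/+ Hdac2 KO. The Htt+/+ groups did not overlap and the HttQ111/+ groups overlapped between 309 and 320 CPM. Dpp6 fell by 0.23 (SE 0.03, adjusted p = 4.87e-06) and by 0.21 (SE 0.03, adjusted p = 3.10e-06).

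Dpp10 (chr1:123332142-124045559) was at 40.9 to 97.0 CPM (median 68.3) in Htt+/+ Hdac2 WT, 60.6 to 113 (median 85.5) in HttQ111/+ Hdac2 WT, 68.1 to 95.3 (median 82.0) in Htt+/+ Hdac2 KO and 63.6 to 103 (median 86.2) in HttQ111/+ Hdac2 KO. The Htt+/+ Hdac2 WT group was the lowest by its median, and all 4 groups overlapped. Dpp10 was called higher in Htt+/+ mice (log2 fold change 0.40, SE 0.09, adjusted p = 0.00176) and had 0.05 (SE 0.08) in HttQ111/+ mice, with a difference between the comparisons that did not pass (−0.36, SE 0.11, unadjusted p = 0.00204, adjusted p = 0.549 by edgeR). Alk, a receptor tyrosine kinase, was at 6.17 ± 0.861, 6.37 ± 1.19, 5.47 ± 0.6001 and 5.02 ± 0.874 CPM in the 4 groups and fell by 0.40 (SE 0.12, adjusted p = 0.0221) and 0.43 (SE 0.11, adjusted p = 0.00458). In Htt+/+ mice the call of Alk was lost in 9 of 21 alternatives, with values of −0.41 to −0.11. Fgf14, an intracellular partner of sodium channels, fell by 0.22 and 0.15. Ryr3, a calcium release channel, fell and Gabrg3, a GABA-A receptor subunit, rose in Htt+/+ mice (−0.17 and 0.19), with −0.03 and 0.07 in HttQ111/+ mice.

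Among the 12 genes of second-messenger and kinase signalling, 0 rose and 3 fell in Htt+/+ mice, and 0 rose and 2 fell in HttQ111/+ mice. Of all genes, 8.79% and 8.86% were called lower. Plcb1 (chr2:134786159-135472144), the phospholipase downstream of Gq-coupled receptors, was at 292 to 359 CPM (median 325) in Htt+/+ Hdac2 WT, 250.3 to 343 (median 274) in HttQ111/+ Hdac2 WT, 202 to 256 (median 235) in Htt+/+ Hdac2 KO and 183 to 279 (median 224) in HttQ111/+ Hdac2 KO. The Htt+/+ groups did not overlap, and those of HttQ111/+ mice did. Plcb1 fell by 0.38 (SE 0.07, adjusted p = 0.000170) and by 0.27 (SE 0.06, adjusted p = 0.00171). Dgkb, which removes the diacylglycerol that Plcb1 makes, fell in Htt+/+ mice from 776 ± 70 to 626 ± 53 CPM (log2 fold change −0.20, adjusted p = 0.0200), and had −0.14 (adjusted p = 0.0577) in HttQ111/+ mice, at 710 ± 102 and 634 ± 84 CPM. Prkg1, the cyclic GMP-dependent kinase, was called lower in HttQ111/+ mice (−0.43, SE 0.13, adjusted p = 0.0201; 4.67 ± 1.39 and 3.39 ± 0.57 CPM), but genes lying inside it held 2599% of its counts.

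Among 14 transcription and RNA-binding factors, 0 rose and 2 fell in Htt+/+ mice (Rbfox1 and Camta1), and 0 rose and 5 fell in HttQ111/+ mice (also Zbtb20, Foxp2 and Smyd3). Of all genes, 8.79% and 8.86% were called lower. Rbfox1 (chr16:6809222-7412479) was at 481 to 585 CPM (median 536) in Htt+/+ Hdac2 WT, 448 to 551 (median 497) in HttQ111/+ Hdac2 WT, 400.4 to 449 (median 425) in Htt+/+ Hdac2 KO and 407 to 476 (median 433) in HttQ111/+ Hdac2 KO. The Htt+/+ groups did not overlap, and those of HttQ111/+ mice overlapped between 448 and 476 CPM. It fell by 0.26 (SE 0.05, adjusted p = 0.000333) and 0.16 (SE 0.04, adjusted p = 0.0103). Camta1, a calmodulin-binding transcription activator, fell by 0.12 in both (adjusted p = 0.00949 and 0.00502), and genes inside it held 45.4% of its counts. Zbtb20, a zinc-finger repressor, was at 15.9 ± 3.6 CPM in HttQ111/+ Hdac2 WT and 12.9 ± 3.8 in HttQ111/+ Hdac2 KO (log2 fold change −0.36, adjusted p = 0.00602), and genes inside it held 255% of its counts. Foxp1, Celf2 and Auts2 did not pass (−0.02 to 0.06 in Htt+/+ and −0.05 to 0.02 in HttQ111/+ mice).

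Of 16 genes of synaptic scaffolds and the membrane skeleton, 1 rose and 1 fell in Htt+/+ mice, and 2 rose and 1 fell in HttQ111/+ mice. The shares over all genes were 9.06% and 7.68% higher and 8.79% and 8.86% lower. Magi1, a scaffold with PDZ domains, rose in both, from 56.6 ± 4.88 to 64.1 ± 3.45 CPM in Htt+/+ (log2 fold change 0.23, adjusted p = 0.000214) and from 61.6 ± 6.05 to 64.0 ± 6.14 CPM in HttQ111/+ mice (0.14, adjusted p = 0.00783). Grip1, a scaffold of AMPA receptors, rose in HttQ111/+ mice (0.18, adjusted p = 0.00988) and had 0.13 in Htt+/+ mice. Syt1 (chr10:108497650-109010962) was at 943 to 1082 CPM (median 1023) in Htt+/+ Hdac2 WT, 991 to 1316 (median 1048) in HttQ111/+ Hdac2 WT, 867 to 1008 (median 966) in Htt+/+ Hdac2 KO and 878 to 983 (median 936) in HttQ111/+ Hdac2 KO. It fell in HttQ111/+ mice, where the groups did not overlap (−0.12, SE 0.03, adjusted p = 0.00407), and had −0.06 (adjusted p = 0.235) in Htt+/+ mice.

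Among 7 small-GTPase and cytoskeletal regulators, 0 rose and 1 fell in Htt+/+ mice, and 0 rose and 2 fell in HttQ111/+ mice. Over all genes 8.79% and 8.86% were called lower. Elmo1, which activates Rac together with DOCK proteins, fell in both comparisons (−0.15, adjusted p = 0.000974, and −0.10, adjusted p = 0.0117). Its level was 231 ± 16.2, 212 ± 16.7, 209 ± 9.71 and 211 ± 21.3 CPM in the 4 groups, so that the WT and KO means of HttQ111/+ mice lay together before adjustment, and with the extraction day in place of the surrogate variables the HttQ111/+ value was 0.06. Arhgap15, a Rac GTPase-activating protein, was at 3.57 ± 0.508, 4.05 ± 1.94, 2.79 ± 0.912 and 2.44 ± 0.598 CPM and was called lower in HttQ111/+ mice (−0.58, SE 0.17, adjusted p = 0.0163).

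Of 20 genes of housekeeping enzymes and trafficking, 2 rose and 2 fell in Htt+/+ mice, and 1 rose and 3 fell in HttQ111/+ mice. The shares over all genes were 9.06% and 7.68% higher and 8.79% and 8.86% lower. Macrod2 (chr2:140395309-142392966), an enzyme that removes ADP-ribose from proteins, was at 86.9 to 102 CPM (median 94.4) in Htt+/+ Hdac2 WT, 77.1 to 95.8 (median 84.3) in HttQ111/+ Hdac2 WT, 73.4 to 81.5 (median 79.4) in Htt+/+ Hdac2 KO and 71.1 to 82.1 (median 77.0) in HttQ111/+ Hdac2 KO. The Htt+/+ groups did not overlap. Macrod2 fell by 0.22 (SE 0.04, adjusted p = 0.000281) and 0.17 (SE 0.04, adjusted p = 0.00136). Vps13b, a lipid transfer protein of the Golgi, fell by 0.21 and 0.18 (adjusted p = 6.61e-05 and 0.000154; 119 ± 7.34, 115 ± 4.74, 99.8 ± 7.56 and 97.4 ± 10.6 CPM). Mgat4c, a glycosyltransferase, was called higher in Htt+/+ mice (0.41, SE 0.08, adjusted p = 0.000580; 7.93 ± 1.18 and 9.22 ± 1.36 CPM) and had 0.03 in HttQ111/+ mice (10.1 ± 1.4 and 9.33 ± 1.46 CPM).

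The 27 genes on none of the role lists held the largest falls in Htt+/+ mice. Zmat4 (chr8:23636019-24156585), a zinc-finger gene, was at 26.7 to 37.3 CPM (median 33.6) in Htt+/+ Hdac2 WT, 22.9 to 40.8 (median 31.5) in HttQ111/+ Hdac2 WT, 21.5 to 27.6 (median 24.6) in Htt+/+ Hdac2 KO and 18.8 to 29.0 (median 22.5) in HttQ111/+ Hdac2 KO. The HttQ111/+ Hdac2 WT libraries split: replicates 1, 2, 6 and 7, of mice with 110 to 113 CAG, lay at 31.5 to 40.8 CPM, and replicates 3, 4 and 5, of mice with 131 to 140 CAG and another identifier series, at 22.9 to 24.8 CPM, within the KO range. Zmat4 fell by 0.57 (SE 0.09, adjusted p = 3.09e-05) and 0.42 (SE 0.08, adjusted p = 0.000326).

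Car10 (chr11:93098028-93601749), a carbonic anhydrase-related protein without enzyme activity that binds neurexins, was at 5.58 to 8.14 CPM (median 7.43) in Htt+/+ Hdac2 WT, 6.33 to 38.0 (median 7.74) in HttQ111/+ Hdac2 WT, 3.56 to 17.2 (median 5.43) in Htt+/+ Hdac2 KO and 4.69 to 8.91 (median 5.87) in HttQ111/+ Hdac2 KO. Its high values, 38.0, 17.2 and 11.9 CPM, were in the 3 libraries highest in cortical markers. It fell by 0.55 (SE 0.13, adjusted p = 0.00214) and 0.39 (SE 0.11, adjusted p = 0.0117), and in Htt+/+ mice the call was lost in 6 of 21 alternatives, with values of −0.79 to −0.06. Mctp1, a calcium-binding C2-domain protein, fell by 0.26 and 0.30 (adjusted p = 0.000139 and 3.93e-06; 179 ± 24.8, 188 ± 27.7, 129 ± 22.0 and 141 ± 21.9 CPM). Anks1b, a protein of the postsynaptic density, fell by 0.26 and 0.22 (adjusted p = 0.0166 and 0.0218; 566 ± 38.3, 467 ± 86.4, 492 ± 43.0 and 421 ± 46.5 CPM). Lpp, a LIM-domain protein of focal adhesions, rose by 0.40 and 0.36 (adjusted p = 0.00102 and 0.000964; 14.9 ± 1.62, 14.98 ± 2.02, 19.4 ± 2.23 and 17.98 ± 3.08 CPM), and Fam155a, a subunit of the sodium leak channel, by 0.32 and 0.21 (adjusted p = 0.000179 and 0.00407; 27.0 ± 3.30, 31.8 ± 7.68, 33.3 ± 2.09 and 33.8 ± 2.07 CPM).

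**Figure D3:**
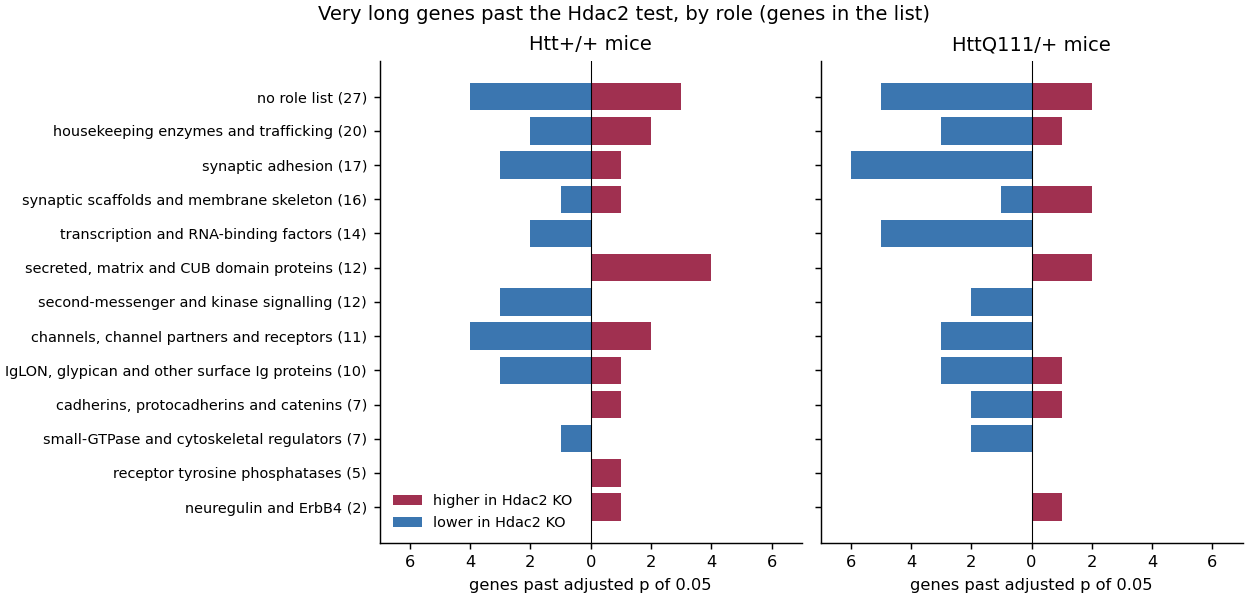
Number of very long genes past an adjusted p of 0.05 in each role list, higher (right of 0) or lower (left of 0) in Hdac2 KO striata, in Htt+/+ and HttQ111/+ mice; the number of genes in the list stands after its name. Several lists have calls on 1 side alone. On the higher side these are secreted, matrix and CUB domain proteins (4 and 2 of 12), neuregulin and ErbB4 (1 and 1 of 2) and receptor tyrosine phosphatases (1 and 0 of 5). On the lower side they are transcription and RNA-binding factors (2 and 5 of 14), second-messenger and kinase signalling (3 and 2 of 12) and small-GTPase and cytoskeletal regulators (1 and 2 of 7). Of all genes, 9.06% and 7.68% were called higher and 8.79% and 8.86% lower.

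Genes at common fragile sites formed a set that crosses the roles. Of 17, 0 rose and 2 fell in each comparison, Cntnap2 and Macrod2 both times, where 8.79% and 8.86% of all genes were called lower, with a median log2 fold change of −0.02 and −0.05. Fhit and Ctnna3, among the longest, did not pass (0.05 and 0.08, and −0.05 and 0.10). Lrp1b had −0.01 and −0.09, the latter with an adjusted p of 0.118. The 4 very long genes listed for glia or vessels had log2 fold changes of −0.06 to 0.12 and −0.05 to 0.12, and did not pass.

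Few genes were separated completely by genotype. The 15 Hdac2 WT and 20 Hdac2 KO libraries overlapped for all 160 genes, where 0.611% of all genes were separated (0.363% higher and 0.248% lower in KO). Within Htt+/+ mice 6 genes were separated (Tmem132d higher and Cntnap2, Dpp6, Macrod2, Plcb1 and Rbfox1 lower), or 3.75% against 4.64% of all genes (2.38% higher and 2.27% lower). Within HttQ111/+ mice Syt1 alone was, or 0.625% against 1.42% of all genes (0.824% higher and 0.594% lower).

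To allow for level, very long genes were set beside shorter genes of similar level, those between the lower and upper quartile of the very long genes (12.1 to 97.0 CPM). In Htt+/+ mice 21.2% of the 80 very long genes in that range passed (13.8% higher, 7.50% lower), and 20.3% of the 7219 genes under 500 kb (11.01% higher, 9.34% lower). In HttQ111/+ mice the shares were 27.5% (10.0% higher, 17.5% lower) and 18.5% (8.95% higher, 9.52% lower). Genes of 250 to 500 kb were called lower in 4.68% and 6.81%, the smallest shares of the span classes. Without regard to sign, the very long genes changed by a median of 0.083 and 0.092 on the log2 scale, and the shorter genes by 0.070 and 0.060. Within groups the very long genes of this level also varied more (median SD 0.167 against 0.108), and the part of that spread was not tested.

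**Figure D4:**
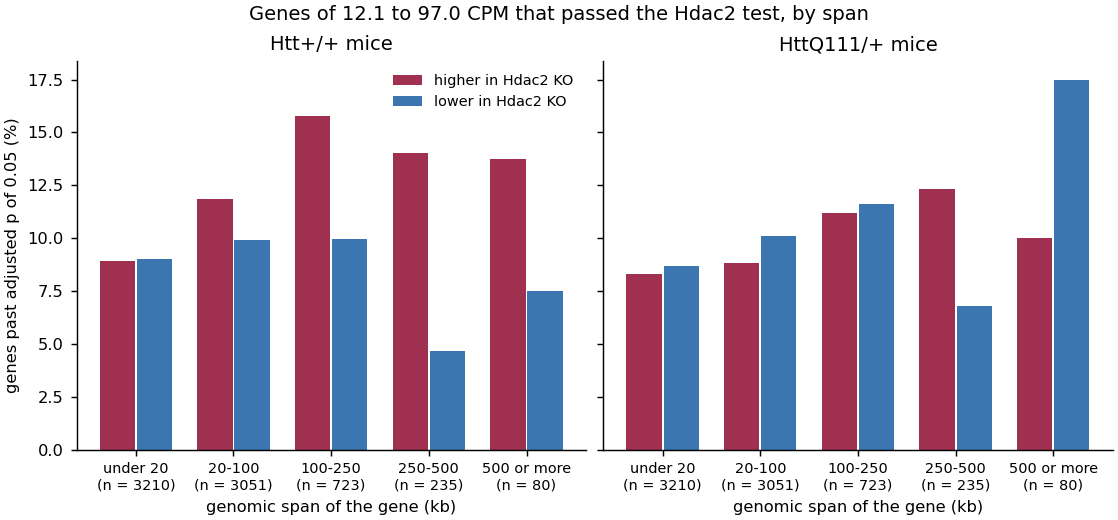
Percentage of genes of 12.1 to 97.0 CPM that passed an adjusted p of 0.05 in the Hdac2 comparisons, by genomic span, higher or lower in Hdac2 KO striata; the number of genes stands under each class, and the very long genes are the class of 500 kb or more. Among the 80 very long genes of this level, higher calls outnumber lower ones in Htt+/+ mice (13.8% and 7.50%), and the reverse holds in HttQ111/+ mice (10.0% and 17.5%). Over all 160 very long genes lower calls outnumber higher ones in both (10.6% higher and 14.4% lower, and 6.25% and 20%).

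Lower calls lay mostly among the abundant genes. Of the 54 most abundant very long genes (74.7 to 990 CPM), 3 rose and 17 fell in Htt+/+ mice and 0 rose and 17 fell in HttQ111/+ mice, which is 31.5% lower in both. Shorter genes of that level were called lower in 22.8% and 22.7% and higher in 7.30% and 6.08%. Of the 53 of middle level (17.1 to 73.3 CPM) 7 rose and 4 fell in Htt+/+ mice and 7 rose and 10 fell in HttQ111/+ mice, with shorter genes at 10.96% higher and 9.15% lower, and 9.24% and 9.07%. Of the 53 least abundant (0.612 to 16.6 CPM) 7 rose and 2 fell (3.77% lower), and 3 rose and 5 fell (9.43% lower), with shorter genes at 9.50% higher and 3.82% lower, and 8.17% and 4.08%. Span within the set gave no such order: the genes of 502 to 606 kb, 608 to 910 kb and 912 to 4435 kb had 4, 8 and 5 rises and 8, 8 and 7 falls in Htt+/+ mice, and 3, 4 and 3 rises and 9, 14 and 9 falls in HttQ111/+ mice.

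The next comparison asked whether the HttQ111 allele altered these genes. In Hdac2 WT mice 1 of the 160 was called, Lrrtm4, or 0.625% against 0.403% of all genes. At an unadjusted p under 0.05 there were 28 (19 higher and 9 lower), or 17.5% against 10.9% of all genes (5.35% higher and 5.5% lower). Lrrtm4 (chr6:80018877-80810141) was at 42.9 to 53.4 CPM (median 46.8) in Htt+/+ Hdac2 WT, 49.5 to 66.6 (median 55.3) in HttQ111/+ Hdac2 WT, 40.5 to 50.3 (median 45.9) in Htt+/+ Hdac2 KO and 41.9 to 61.7 (median 52.0) in HttQ111/+ Hdac2 KO. HttQ111/+ mice were higher by the median in both Hdac2 backgrounds, with overlap in both. The log2 fold change was 0.22 (SE 0.04, adjusted p = 0.0133 by edgeR) in Hdac2 WT and 0.09 (SE 0.04, adjusted p = 0.533) in Hdac2 KO mice. The HttQ111/+ and Htt+/+ ranges overlapped for all 160 genes in Hdac2 WT mice, where 0.138% of all genes were separated (0.0749% higher and 0.0634% lower). Without Htt+/+ Hdac2 WT replicate 9, Lrrtm4 had an adjusted p of 0.0511 and 0 of the 160 genes passed, against 0.215% of all genes.

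In Hdac2 KO mice 0 of the 160 genes were called by edgeR, against 0.00584% of all genes, and 18 had an unadjusted p under 0.05 (6 higher and 12 lower, or 11.2% against 7.52% of all genes, of which 3.26% higher and 4.27% lower). DESeq2 and limma-voom each called 1 of the 160, against 0.245% and 0.0234% of all genes. That gene, Cdk14, a cyclin-dependent kinase of the Wnt pathway, was singled out after its values were seen. Cdk14 (chr5:4803391-5420312) was at 37.3 to 57.5 CPM (median 52.0) in Htt+/+ Hdac2 WT, 35.5 to 83.7 (median 60.5) in HttQ111/+ Hdac2 WT, 32.7 to 68.7 (median 56.6) in Htt+/+ Hdac2 KO and 53.9 to 70.7 (median 62.4) in HttQ111/+ Hdac2 KO. HttQ111/+ mice were again higher by the median in both backgrounds, with wide overlap. Its log2 fold change was 0.44 (SE 0.08, adjusted p = 0.0506 by edgeR) in Hdac2 KO and 0.35 (SE 0.10, adjusted p = 0.152) in Hdac2 WT mice.

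The 2 Htt comparisons, which share no library, had the same sign for 102 of the 160 genes, and for 58.6% of all genes. The median log2 fold change of the very long genes was 0.010 in Hdac2 WT and −0.013 in Hdac2 KO mice, and at similar level the median absolute change was 0.062 and 0.045, against 0.041 and 0.028 for genes under 500 kb. The very long genes of that level also varied more within groups, with a median SD of 0.167 against 0.108 on the log2 scale. The part of that spread in the absolute changes was not tested. Of 11 MSN marker genes, 5 fell in HttQ111/+ mice on the Hdac2 WT background (Penk, Gpr6, Ppp1r1b, Rgs9 and Drd1a), where 0.222% of all genes were called lower. Ppp1r1b was at 1574 ± 128 CPM in Htt+/+ Hdac2 WT and 1190 ± 143 CPM in HttQ111/+ Hdac2 WT. The summed level of the 11 markers was 8909 to 10099 CPM in Htt+/+ Hdac2 WT and 6515 to 8982 CPM in HttQ111/+ Hdac2 WT. The part of these markers in the values of the very long genes was not tested.

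The interaction of both genotypes, which asks whether the response to HttQ111 depended on Hdac2, was called for 0 of the 160 genes, as given above with its counts. Of the 11 with an unadjusted p under 0.05, 2 were higher and 9 lower, against 2.5% and 3.13% of all genes. The smallest p was that of Mgat4c (log2 difference −0.38, SE 0.10, unadjusted p = 0.000424, adjusted p = 0.549 by edgeR), which was at 7.93 ± 1.18 and 10.1 ± 1.4 CPM in Htt+/+ and HttQ111/+ mice with Hdac2, and at 9.22 ± 1.36 and 9.33 ± 1.46 CPM without it.

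Very long genes varied more between mice of 1 group than other genes did. Their median within-group SD was 0.163 on the log2 scale (quartiles 0.121 and 0.221), and 0.167 for the 80 of similar level, against 0.108 for the 7219 shorter genes of that level. As a set they also shifted from library to library. The median deviation of the 160 genes from their mean over all libraries ran from −0.205 in HttQ111/+ Hdac2 KO replicate 4 to 0.083 in HttQ111/+ Hdac2 KO replicate 1, the most deeply sequenced library, while that of the shorter genes, which the scaling itself holds near 0, ran from −0.012 to 0.023. Its group medians were 0.021 in Htt+/+ Hdac2 WT, 0.022 in HttQ111/+ Hdac2 WT, −0.003 in Htt+/+ Hdac2 KO and −0.021 in HttQ111/+ Hdac2 KO, and the group ranges overlapped.

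**Figure D5:**
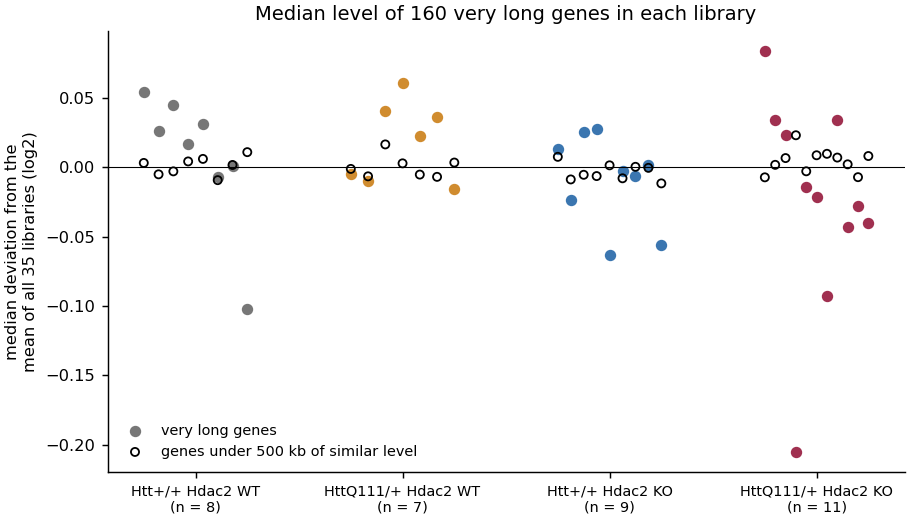
Median deviation (log2) of the 160 very long genes from their mean over the 35 libraries, 1 filled point per mouse, and the same for genes under 500 kb of similar level (open points), by group. The very long genes spread from −0.205 to 0.083 and the shorter genes, held near 0 by the scaling, from −0.012 to 0.023.

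In HttQ111/+ Hdac2 WT replicate 7, the library highest in cortical markers, 7 of the 160 genes were over 2 times the mean of the other 6 libraries of the group. Cadps2, a factor for dense-core vesicle release, was at 72.7 CPM there against at most 12.7 in the others, which is 8.09 times their mean, and Car10 was at 4.69 and Tmem132d at 3.00 times. The remaining 4 were Fam19a1, Arhgap15, Sox5 and Ptprk. Cadps2 was also at 23.3 CPM in the highest Htt+/+ Hdac2 KO library, with a group median of 8.45. Of 9 rows of cortical marker genes 1 was called in a Hdac2 comparison, the more abundant of the 2 rows of Cux2, higher in Htt+/+ mice, and of 34 markers of astrocytes, oligodendrocytes and their precursors, microglia and endothelium the astrocyte transporter Slc1a2, lower in both. Over all genes the shares called were 17.8% in Htt+/+ and 16.5% in HttQ111/+ mice. Counts without the 3 libraries highest in cortical markers are given with the Hdac2 comparisons, and the part of cortical tissue in single genes was not tested.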

How the data were processed

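RNA of 35 striata was made into stranded, poly(A)-selected libraries and sequenced in pairs. The authors aligned reads with GSNAP to GRCm38 (Ensembl annotation) and counted uniquely aligned reads per gene with bedtools. The deposited values are these raw counts. Whether strand was used in counting is not given in the sources used here. The authors left 1 Htt+/+ Hdac2 WT male out as an outlier.

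Groups were taken from the sample labels. Rows of at most 250 bases were left out. Genes that reached 6 counts throughout at least 1 of the compared groups were fitted over all 35 libraries with edgeR 4.0.16 (TMM factors, quasi-likelihood F test) and 9 surrogate variables from sva 3.50.0, in R 4.3.3, and p-values were Benjamini-Hochberg adjusted over all genes. Standard errors are on the log2 scale. CPM values use library totals scaled by TMM factors, and SD is over mice. DESeq2 1.42.0 and limma-voom (limma 3.58.1) were alternatives, among 25 in all, of which 5 were chosen after seeing the data. The fit was tested on simulated data.

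The very long genes, the role lists and the lists of partners and markers were chosen with earlier results of these data known. Genes were named by rule: up to 8 rises and 8 falls per comparison by size, the 10 longest, the 5 most abundant per length of span, the 2 largest called changes per role list, the genes next to the span limit, and Hdac2, Hdac1 and Ppp1r1b. Other genes named beside a count were named after their values were seen. Replicates are separate mice. Same-numbered replicates of different groups were not taken as pairs, since 18 of 45 such pairs, and not every 1, correlated over 0.1, and no pair of libraries held the same counts. Totals of 50970712 to 77867348 counts gave at least 9 counts for every very long gene in every library.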

Additional observations from a re-analysis of the deposited data

Results flagged for a closer look

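Among groups of 7 to 9 mice, a library stood apart from the rest of its group by Dixon's criterion in 18 of 153 groups of values examined, where chance gives about 1 in 20 groups, or 7.65. The group of 11 HttQ111/+ Hdac2 KO mice was not examined. HttQ111/+ Hdac2 WT replicate 7 accounted for 8 of them: it was the highest for the cortical marker sum (495 CPM), Car10 (38.0 CPM), Astn2 (37.5 CPM), Fam155a (48.3 CPM), Nell1 (29.1 CPM), Nrg3 (24.0 CPM), Tmem132d (16.9 CPM) and Syt1 (1316 CPM). Ctnna3 was high in HttQ111/+ Hdac2 WT replicate 4 (5.42 CPM).

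In the Htt+/+ Hdac2 WT group, replicate 9 was the lowest for the median deviation of the very long genes (−0.10 on the log2 scale), for their share of the library (1.32% of counts) and for Grip1 (19.1 CPM). Fhit was high in replicate 6 (6.69 CPM) and Ptprd in replicate 2 (269.7 CPM). In the Htt+/+ Hdac2 KO group, Ptprd (283.1 CPM) and Edil3 (217.7 CPM) were high in replicate 1, Arhgap15 in replicate 6 (4.96 CPM) and Lpp in replicate 9 (24.7 CPM).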

How the results depend on the processing

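Under the 25 alternatives the median log2 fold change of the very long genes ran from −0.014 to 0.036 for the Hdac2 comparison in Htt+/+ mice (main fit 0.0053). In HttQ111/+ mice it ran from −0.056 to 0.0057 (main fit −0.025), so its sign was not fixed in either comparison. The count of genes called in Htt+/+ mice (40, or 25% against 17.8% of all genes) stayed within 1.5 times, at 28 to 48, in 21 alternatives. It was 9 with the extraction day in place of the surrogate variables (5.6% against 4.80%) and 64 with only the 2 groups fitted (40% against 29.7%). It was 61 of 260 genes of at least 400 kb (23.5%) and 17 of 75 of at least 750 kb (22.7%), both against 17.8%. In HttQ111/+ mice (42, or 26.25% against 16.5%) it stayed within 1.5 times in 19. It was 26 without surrogate variables (16.25% against 13.5% of all genes) and 26 with sex in their place (16.25% against 13.6%). With the extraction day it was 4 (2.5% against 1.93%), in males 27 (16.9% against 9.81%) and at 750 kb 18 (24% against 16.5%). For HttQ111 in Hdac2 WT mice, the single call was lost (0) without surrogate variables, with sex, with TMM factors from genes of 100 to 500 kb, in males, with 2 groups and without Htt+/+ Hdac2 WT replicate 9. These settings called 0 to 0.292% of all genes. The count of very long genes was 5 with the extraction day (Lrrtm4 not among them), or 3.1% against 2.45% of all genes. It was 7 with the letter series of mouse identifiers (4.4% against 4.89%) and 16 without the mice of 1 such series (10% against 5.24%). At 400 kb it was 3 (1.15% against 0.403%). In Hdac2 KO mice 1 gene, Cdk14, was called with DESeq2 size factors, upper-quartile scaling, DESeq2, limma-voom, no count filter, edgeR's own filter, short rows kept and without Htt+/+ Hdac2 WT replicate 9. That is 0.625%, against 0.0152% to 0.245% of all genes. For the interaction 1, Mgat4c, was called with the identifier series (0.625% against 0.0404% of all genes). The cause of these changes was not tested.

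With the replicate number as a block, in place of the surrogate variables, 46 genes were called in Htt+/+ mice (28.75% against 25.4% of all genes). In HttQ111/+ mice 20 were called (12.5% against 10.8%), and 0 for HttQ111 in Hdac2 WT mice (against 0.0759%). The replicate numbers were not taken to pair mice: 18 of 45 same-numbered pairs correlated over 0.1 (range −0.232 to 0.376).

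Of 1113 values of named genes, 937 kept direction and call, 169 lost the call and 7 reversed. Lrrtm4 in Htt+/+ mice reversed to −0.056 without surrogate variables, −0.054 with sex, −0.11 with the extraction day, −0.066 with the block and −0.032 with 2 groups. With the extraction day Anks1b was 0.048 and Elmo1 0.056 in HttQ111/+ mice.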

Other observations

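Zmat4 was lower in HttQ111/+ mice with longer repeats in both Hdac2 backgrounds, a pattern chosen after its values were seen and not tested. In HttQ111/+ Hdac2 WT mice the 4 libraries of mice with 110 to 113 CAG lay at 31.5 to 40.8 CPM and the 3 of mice with 131 to 140 CAG at 22.9 to 24.8 CPM. In HttQ111/+ Hdac2 KO mice the 6 libraries of mice with 110 to 118 CAG lay at 22.2 to 29.0 CPM and the 5 of mice with 131 to 144 CAG at 18.8 to 22.5 CPM, ranges that overlapped. The 4 Hdac2 WT mice with short repeats were extracted on 24 and 25 May and the 3 with long repeats on 25 and 27 May, and the part of the day was not tested. In both groups every mouse with long repeats had an identifier of 1 series and every mouse with short repeats an identifier of the others, so among HttQ111/+ mice repeat length and series cannot be told apart. Htt+/+ mice of that series were in both Htt+/+ groups. All Htt+/+ Hdac2 WT libraries lay above the 3 HttQ111/+ Hdac2 WT libraries with long repeats. Among Hdac2 KO mice the Htt+/+ range overlapped that of the 5 libraries with long repeats. The part of the series was not tested.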
